A study of Rattus norvegicus with 458 samples.

Results

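The comparison of kidney cortex with kidney medulla was drawn from 20 of the 215 libraries of a rat miRNA body atlas, 10 libraries of each region, chosen by the tissue named in the sample labels. Small RNA was sequenced from 23 tissues of Sprague Dawley rats aged 12 to 13 weeks that had received no treatment, 5 males (rats 2 to 6) and 5 females (rats 7 to 11). Each rat gave a cortex sample, a medulla sample and a sample labelled kidney, here called whole kidney, so the regions were compared within rats and the 10 whole kidney libraries are shown beside them. All miRNA names of the deposited count table entered the comparison. Of 7534 names, 3720 had a count in the 20 libraries and 475 passed the filter on low counts. These were 349 single mature miRNAs, 29 composite names for reads that match several precursors, 90 predicted miRNAs and 7 names for reads from the rest of a precursor.

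The cortex is the outer zone of the kidney and holds the glomeruli, most of the proximal tubule and the distal convoluted tubule. The medulla holds the loops of Henle, the collecting ducts and the vasa recta, and it is known for high osmolality and low oxygen tension. A miRNA guides the silencing complex to messenger RNAs mainly through its seed, bases 2 to 8 from the 5′ end, so miRNAs with the same seed can reach overlapping sets of targets. The samples were whole tissue, in which fewer cells of a type and less of a miRNA per cell cannot be told apart.

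The following mature sequences are those of miRNAs on which the results below turn: 7 that differed clearly between the regions, and both arms of miR-10a, whose 5p arm led the counts in both. They were taken from RefSeq (build GRCr8) and have the seed in capitals. The first 6 were higher in medulla and the last 3 in cortex.
miR-31a-5p: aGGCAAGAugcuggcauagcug
miR-205: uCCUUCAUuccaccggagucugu
miR-141-3p: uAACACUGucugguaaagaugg
miR-200c-3p: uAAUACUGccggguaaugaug
miR-10a-5p: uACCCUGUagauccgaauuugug
miR-10a-3p: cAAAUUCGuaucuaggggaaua
miR-192-5p: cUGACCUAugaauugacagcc
miR-541-5p: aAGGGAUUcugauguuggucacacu
miR-134-5p: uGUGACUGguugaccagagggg

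In that build miR-31a-5p lies at chr5:108714906-108714927 (minus strand) and miR-205 at chr13:107564588-107564610 (minus strand). miR-141-3p (chr4:159209540-159209561) and miR-200c-3p (chr4:159209969-159209989) are neighbours on the minus strand. The arms of miR-10a lie at chr10:81779730-81779752 and chr10:81779771-81779792 (plus strand), within the HOXB gene cluster. miR-192-5p lies at chr1:212994232-212994252, and miR-134-5p (chr6:134570320-134570341) and miR-541-5p (chr6:134578434-134578458) belong to the imprinted Dlk1-Dio3 region, all on the plus strand. Of the 349 single mature names tested, 287 matched a RefSeq miRNA by name, and for 263 of these the most counted read started at the RefSeq 5′ end. The most counted read of miR-10b-5p, uACCCUGUagaaccgaauuugu, did not, and its seed is that of miR-10a-5p.

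Total counts ran from 2243745 to 8943451 in cortex and from 3700110 to 8658926 in medulla. The RNA integrity number (RIN, a score of RNA quality up to 10) was lower in cortex, at 6.3 to 8.1 with a median of 7.2, than in medulla, at 7.4 to 8.1 with a median of 7.75. By the median correlation of log levels with the other libraries of each region, all 10 medulla libraries were closer to medulla than to cortex, while the cortex library of rat 9 was slightly closer to medulla (r = 0.9733) than to cortex (r = 0.9719). The medulla libraries of rats 2 and 11 stood at the ends of the range for many cortex-enriched miRNAs. Of the 139 names called higher in cortex below, the medulla of rat 2 had the highest medulla level for 94 (67.6%) and that of rat 11 the lowest for 74 (53.2%). Among the 269 names without a call these were 90 (33.5%) and 58 (21.6%), and among the 67 called higher in medulla 14 (20.9%) and 16 (23.9%). One sequencing run of the medulla of rat 7 stood apart at the read ends. In that run 52.6% of the reads began 1 base before the usual 5′ end, against 0.333% to 0.428% in 60 other kidney runs, and the whole kidney library of rat 7 had such a run on the same lane. Results on read ends are therefore given with and without it. Of the region calls below, 66 of the 67 higher in medulla and 131 of the 139 higher in cortex were also made without that medulla run. None turned direction. Against the labels, miR-10a-3p had its highest mean of all 23 tissues in medulla and its second highest in cortex, while the liver miRNA miR-122-5p stayed at or below 2.46 CPM in cortex and 23.0 CPM in medulla. CPM is the count divided by the total of the library and scaled to a common total.

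Medulla and cortex differed for 206 of the 475 names (edgeR quasi-likelihood test with rat as a block, Benjamini-Hochberg adjusted p at most 0.05). Of these, 67 were higher in medulla (14.1% of the names tested) and 139 higher in cortex (29.3%). The change reached a log2 of 1 for 22 of the names higher in medulla and for 38 of those higher in cortex. The 10 medulla and 10 cortex values did not overlap for 17 names higher in medulla (3.58%) and 20 higher in cortex (4.21%), and all 37 were among the 206. A few miRNAs held most of the counts: the 6 most abundant names made up 71.5% ± 2.0 of the cortex counts and 75.7% ± 4.0 of the medulla counts (SD, n = 10 each).

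The split between directions depended on the scaling. The upper quartile scaling used here put the median log2 change of all names at -0.17. TMM scaling moved that median by 0.14 and DESeq2 size factors by 0.15 towards medulla, and plain library totals moved it by -0.16. The calls higher in medulla made up 32.5% of all calls in the main scaling, 46.4% with TMM, 47.2% with DESeq2 and 21.9% with library totals. With TMM 90 names were higher in medulla and 104 in cortex, and with library totals 47 and 168. A call in the same direction under all 4 scalings was made for 150 names (31.6% of those tested), 47 of them higher in medulla and 103 higher in cortex. Among the miRNAs described here, the calls that did not hold under all 4 were those of miR-23a-3p, miR-26a-5p, miR-27b-3p, miR-181a-5p, miR-200a-3p and miR-429 (higher in medulla) and of miR-22-3p, miR-128-3p, miR-378a-3p and miR-3107-5p;miR-486-5p (higher in cortex).

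RNA quality differed between the regions, and its part in the changes was not tested apart from a fit with the RIN as a further term. That fit made 34 calls higher in medulla and 62 higher in cortex, of which 34 and 59 were among the calls without it, and none turned direction. Among the miRNAs described here, the calls lost with the RIN were those of miR-10a-5p, miR-125a-5p, miR-200b-3p, miR-200a-3p, miR-429, miR-27b-3p, miR-181a-5p and miR-26a-5p (higher in medulla) and of miR-23b-3p, miR-32-5p, miR-363-3p, miR-203a-3p, miR-101a-3p, miR-128-3p, miR-149-5p, miR-22-3p, miR-378a-3p, miR-451-5p, miR-3963 and miR-3107-5p;miR-486-5p (higher in cortex). The calls of miR-31a-5p, miR-205, miR-192-5p, miR-541-5p and miR-134-5p stayed.

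**Figure D1:**
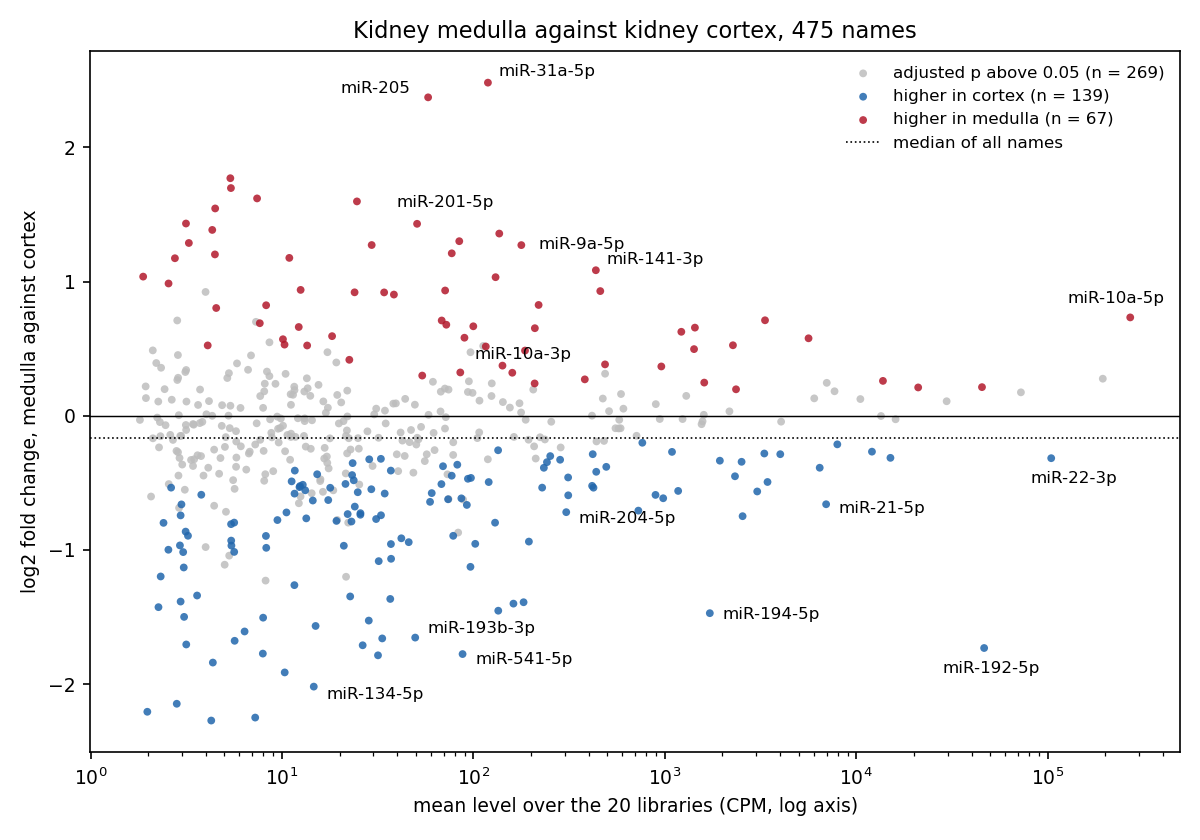
Log2 fold change of medulla against cortex (vertical axis) against the mean level over the 20 libraries in CPM (horizontal log axis) for the 475 names, coloured by call. miR-31a-5p and miR-205 stand above all other names at 2.48 and 2.37, miR-192-5p is the abundant miRNA that fell most, and the dotted line marks the median of -0.17.

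miR-31a-5p and miR-205 led the miRNAs that were higher in medulla. miR-31a-5p, a miRNA of epithelial cells, ranged from 24.5 to 62.6 CPM in cortex (median 38.1) and from 131 to 310 CPM in medulla (median 190). The ranges did not overlap, and the log2 change was 2.48 ± 0.16 (SE, edgeR adjusted p = 5.5e-07). miR-205, a miRNA of stratified and ductal epithelia, ranged from 5.59 to 48.0 CPM in cortex (median 19.7) and from 48.2 to 128 CPM in medulla (median 96.3). Here the highest cortex value, of rat 7, almost met the lowest medulla value, of rat 10. The log2 change of miR-205 was 2.37 ± 0.29 (edgeR adjusted p = 5.6e-05).

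The miR-200 family, which represses the transcription factors ZEB1 and ZEB2 and is known for keeping epithelial cells epithelial, was higher in medulla for 7 of its 9 tested names and in cortex for 0. Its median log2 change was 0.53, against -0.17 over all names. The rise was uneven. miR-200c-3p ranged from 44.1 to 58.9 CPM in cortex (median 55.1) and from 85.7 to 139 CPM in medulla (median 115), with no overlap and a log2 change of 1.30 ± 0.12 (edgeR adjusted p = 6.2e-06). miR-141-3p ranged from 235 to 357 CPM in cortex (median 309) and from 506 to 633 CPM in medulla (median 576), again with no overlap and a change of 1.08 ± 0.07 (edgeR adjusted p = 5.7e-07). The more abundant members moved less. miR-200b-3p, with medians of 2020 CPM in cortex and 2451 CPM in medulla, changed by 0.53 ± 0.11, miR-200a-3p by 0.37 ± 0.07 and miR-429 by 0.25 ± 0.07. The calls for miR-200a-3p and miR-429 did not hold under all 4 scalings. In each rat the summed level of miR-141 and miR-200c rose by more than that of miR-200a, miR-200b and miR-429, by a log2 of 0.72 ± 0.17 on average (SD over rats, higher in 10 of 10). This contrast was set up after the values had been seen and carries no test.

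Other miRNAs whose medulla and cortex ranges did not overlap included miR-9a-5p, best known from neurons. It ranged from 92.1 to 148 CPM in cortex (median 111) and from 181 to 315 CPM in medulla (median 245), with a log2 change of 1.27 ± 0.07 (edgeR adjusted p = 1.7e-07). Both tested names of the neuronal list, the arms of miR-9a, were higher in medulla, but the neuronal miR-124-3p did not exceed 4.82 CPM in any of the 20 libraries. miR-92b-3p (49.0 to 105 CPM, medians of cortex and medulla), miR-187-3p (6.93 to 13.5 CPM) and miR-222-3p (91.5 to 166 CPM) changed by log2 values of 1.21, 1.18 and 1.03, each without overlap. miR-222 and miR-221, which repress the cell cycle inhibitor p27, were higher in medulla for all 3 tested names, with a median change of 0.94. The X-chromosomal miR-201-5p rose from 28.7 to 71.9 CPM and its neighbour miR-3585-5p from 99.6 to 192 CPM (medians), by log2 values of 1.43 ± 0.13 and 1.36 ± 0.16, without overlap. miR-210, a classical target of the hypoxia-inducible factors, was higher in medulla for both arms. miR-210-3p ranged from 29.5 to 93.3 CPM in cortex (median 48.9) and from 77.8 to 101 CPM in medulla (median 86.2). The ranges overlapped, and the change of 0.93 ± 0.15 had an edgeR adjusted p of 0.00036.

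**Figure D2:**
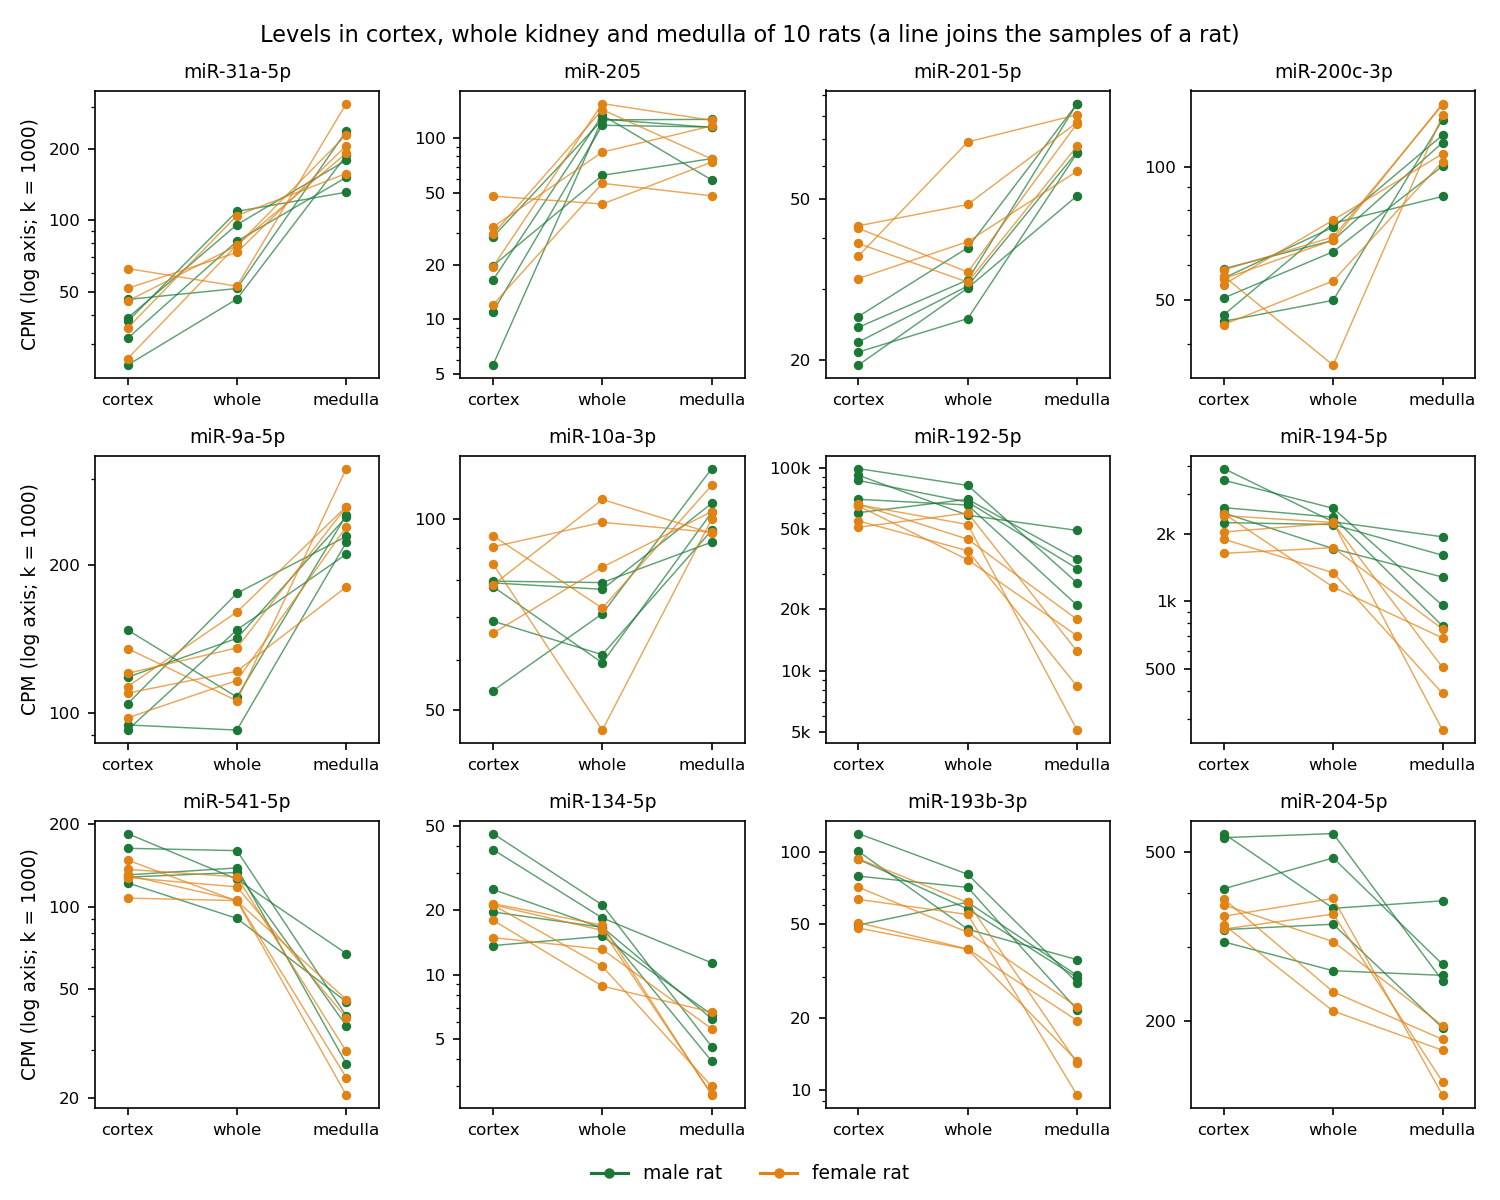
Levels of 12 miRNAs in CPM (log axes) in cortex, whole kidney and medulla, with a line joining the samples of each of the 10 rats, males and females in separate colours. The first 6 miRNAs rose in medulla in all 10 rats and the last 6 fell in all 10, and miR-205 had a median of 123 CPM in whole kidney against 96.3 CPM in medulla.

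miR-10a was the most counted miRNA of both regions and rose in medulla. miR-10a-5p ranged from 150970 to 285830 CPM in cortex (median 226320) and from 218800 to 415410 CPM in medulla (median 324860). It was higher in medulla in 10 of 10 rats, although the ranges overlapped, and changed by 0.73 ± 0.13 (edgeR adjusted p = 0.00053). With the RIN in the fit the change was 0.48 (edgeR adjusted p = 0.11). As a share of all counts its mean went from 21.9% ± 4.6 to 32.1% ± 5.9 (SD, n = 10 each). miR-10a-3p, the passenger strand, ranged from 53.6 to 94.1 CPM in cortex (median 79.0) and from 91.9 to 120 CPM in medulla (median 101). It too was higher in medulla in 10 of 10 rats with overlapping ranges, and its change was 0.58 ± 0.09 (edgeR adjusted p = 0.0002). miR-10b-5p, from the HOXD cluster, had medians of 191800 CPM in cortex and 199280 CPM in medulla, and its change of 0.28 ± 0.13 did not pass (edgeR adjusted p = 0.099). Without rat 3, whose cortex held the highest value, the change of miR-10b-5p was 0.39 and passed. In each rat miR-10a-5p rose by more than miR-10b-5p, by a log2 of 0.46 ± 0.14 (SD, 10 of 10 rats, no test). Together the 2 miRNAs held 40.6% ± 6.6 of the cortex counts and 52.1% ± 7.7 of the medulla counts, so the share left to all other miRNAs was smaller in medulla. Of the 11 tested names of the miR-10 and miR-196 families, which sit in the HOX clusters, 4 were higher in medulla and 0 in cortex, with a median of 0.28; TMM gave 5 and DESeq2 7 higher in medulla, and library totals 4 with 1 higher in cortex.

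miR-192-5p, a miRNA of kidney tubule and gut epithelium, was an abundant miRNA higher in cortex. It ranged from 50793 to 98824 CPM in cortex (median 65758) and from 5087 to 48990 CPM in medulla (median 19401). The ranges did not overlap, with the medulla of rat 2 close below the lowest cortex value, and the log2 change was -1.73 ± 0.22 (edgeR adjusted p = 7.2e-05). miR-194-5p has a precursor beside that of miR-192. Its medians were 2439 CPM in cortex and 764 CPM in medulla, and it changed by -1.47 ± 0.19. In the list of miR-192, miR-194 and miR-215, 5 of 6 tested names were higher in cortex, with a median of -1.54. The exception was miR-215, which shares its seed with miR-192 and ranged from 9.97 to 55.9 CPM in cortex (median 39.3) and from 4.77 to 43.4 CPM in medulla (median 24.2). Its change was -0.37 ± 0.37 (edgeR adjusted p = 0.48).

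Several abundant miRNAs were moderately higher in cortex. miR-22-3p, the third most counted name of both regions, ranged from 80173 to 160080 CPM in cortex (median 121880) and from 50586 to 128310 CPM in medulla (median 83743), and it changed by -0.32 ± 0.11 (edgeR adjusted p = 0.042). The call of miR-22-3p was lost without any 1 of rats 2, 5, 6, 7, 8, 10 and 11, with changes of -0.33 to -0.22. miR-16-5p, which targets cell cycle genes, had medians of 7515 and 5018 CPM and changed by -0.39 ± 0.07. Of these 2 only the call of miR-16-5p held under all 4 scalings. In the other direction miR-26a-5p changed by 0.21 ± 0.06 and miR-181a-5p by 0.26 ± 0.08, and neither call held under all 4. The call of miR-181a-5p was also lost without rat 4 (0.22).

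Other epithelial miRNAs higher in cortex were miR-204-5p, hosted by Trpm3, and the miR-203 pair. miR-204-5p ranged from 308 to 553 CPM in cortex (median 365) and from 134 to 384 CPM in medulla (median 194), and it changed by -0.72 ± 0.08 (edgeR adjusted p = 2e-05), lower in medulla in all 10 rats. miR-203b-3p, highest in cortex among the 23 tissues, had medians of 250 CPM in cortex and 77.0 CPM in medulla and changed by -1.39 ± 0.21. miR-203a-3p changed by -0.46 ± 0.13. With miR-205 they make a list of 3 tested names, 1 higher in medulla and 2 in cortex, and miR-204-5p was the 1 tested name of its own list. miR-193b-3p ranged from 48.0 to 120 CPM in cortex (median 75.3) and from 9.53 to 35.3 CPM in medulla (median 22.1), without overlap, and changed by -1.65 ± 0.15. miR-218a-5p, hosted by the Slit genes, changed by -1.40 ± 0.18. miR-21-5p, a miRNA induced by injury and fibrosis, had medians of 8509 CPM in cortex and 5101 CPM in medulla and changed by -0.66 ± 0.09, lower in medulla in all 10 rats, and miR-21-3p changed by -1.13 ± 0.15.

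The imprinted Dlk1-Dio3 region, whose miRNAs are expressed from the maternal chromosome, gave 13 names higher in cortex and 0 in medulla of 18 tested, with a median log2 change of -1.49. These were low to moderate in level. miR-541-5p ranged from 108 to 185 CPM in cortex (median 131) and from 20.5 to 67.5 CPM in medulla (median 38.0), and miR-411-5p from 126 to 320 CPM (median 195) and from 29.5 to 126 CPM (median 69.1). The ranges of both were apart. miR-541-5p changed by -1.78 ± 0.10 (edgeR adjusted p = 1.7e-07), miR-134-5p by -2.02 ± 0.21 and miR-409a-3p by -1.79 ± 0.15. The first miRNAs of the same region did not share this. miR-127-3p had medians of 74.6 CPM in cortex and 88.7 CPM in medulla and changed by 0.26 ± 0.25 (edgeR adjusted p = 0.48). Of the 79 names of the region in the table, 61 did not pass the filter on low counts.

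**Figure D3:**
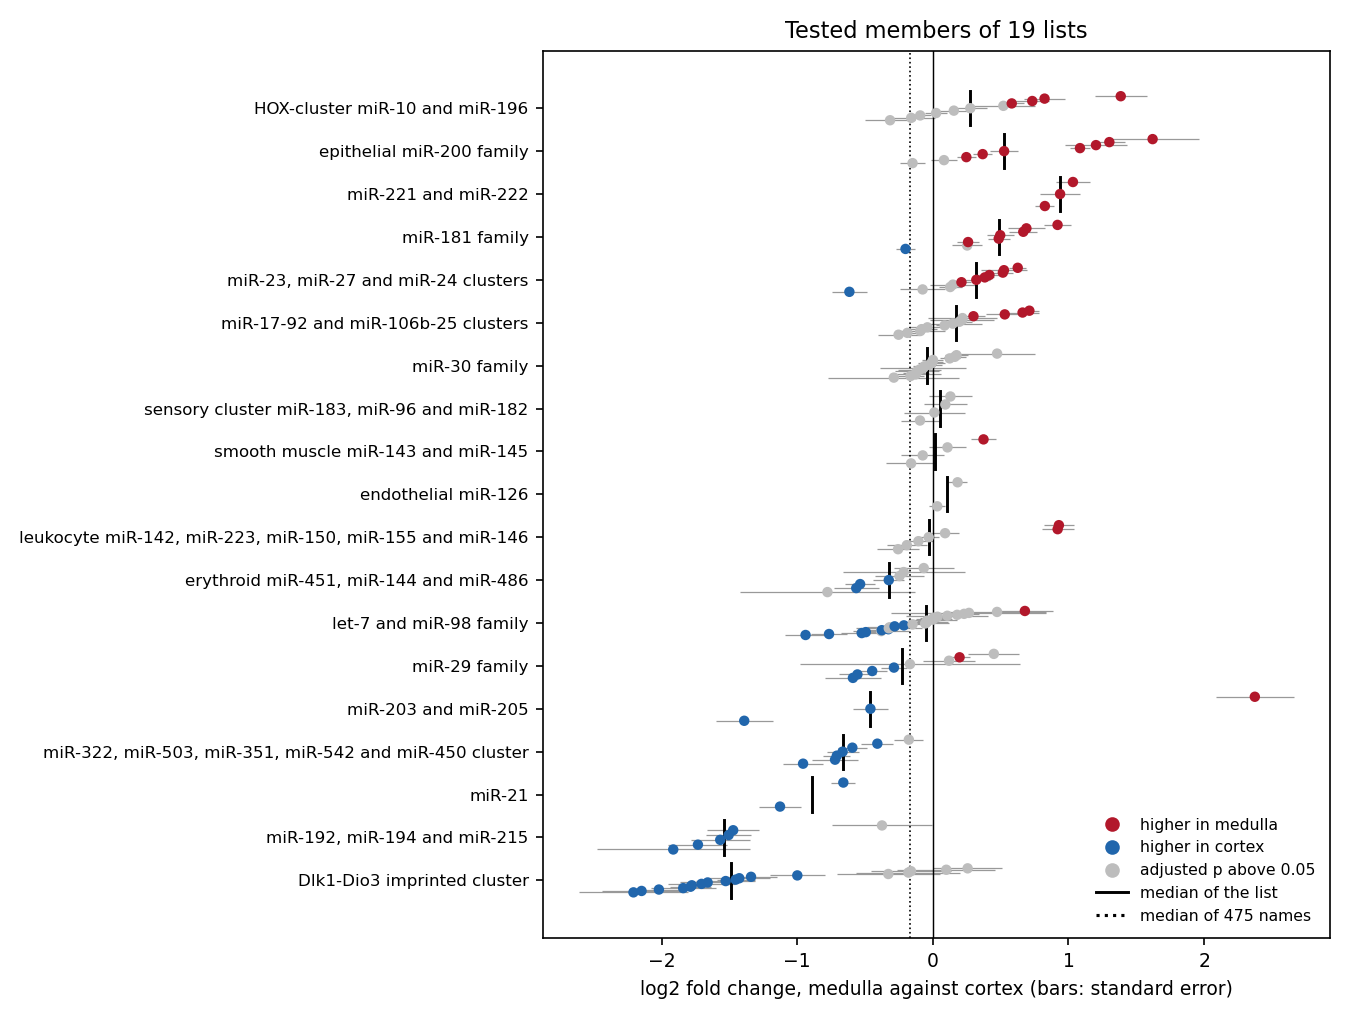
Log2 fold change of medulla against cortex with its standard error for each tested member of 19 of the 33 lists, coloured by call, with the median of each list as a bar and the median of all 475 names as a dotted line. The miR-192, miR-194 and miR-215 list and the Dlk1-Dio3 region lie at the cortex end, with medians of -1.54 and -1.49, and miR-221 and miR-222 at the medulla end with 0.94.

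Among families found in most tissues, directions differed. Over all names tested, 14.1% were higher in medulla and 29.3% in cortex. The miR-181 family had 6 of 8 tested names higher in medulla and 1 higher in cortex (median 0.49), the miR-23, miR-27 and miR-24 clusters 7 and 1 of 11 (median 0.32), and the miR-17-92 and miR-106b-25 clusters 4 and 0 of 14 (median 0.17). With library totals these 3 counts became 5 and 1, 2 and 1, and 2 and 1. The cell cycle regulating miR-322 and miR-503 cluster on the X chromosome had 6 of 7 names higher in cortex (median -0.66), including miR-351-5p with 778 to 1333 CPM in cortex (median 900) and 367 to 684 CPM in medulla (median 506). The let-7 and miR-98 family had 1 of 26 higher in medulla and 8 higher in cortex (median -0.05), a cortex count near the 29.3% of all names, and 3 and 4 with TMM. Lists with more names higher in cortex than in medulla were the miR-29 family with 1 and 4 of 8 (-0.23; 2 and 2 with TMM) and the miR-15, miR-16, miR-195 and miR-497 list with 0 and 3 of 8 (-0.31). The cortex count of the latter was also near the share of all names. Smaller lists were miR-132 and miR-212 with both of 2 names higher in medulla, miR-99, miR-100 and miR-125 with 1 of 11, miR-26 with 1 of 4 in each direction, miR-148 and miR-152 with 2 of 4 in each, and, with names higher in cortex alone, the miR-378 family with 2 of 3 and miR-489 and miR-653 with 2 of 3. Several of these counts turned with the scaling. With library totals miR-99, miR-100 and miR-125 had 1 higher in medulla and 3 in cortex (6 and 0 with DESeq2), and miR-148 and miR-152 had 0 and 2. With TMM miR-26 had 2 and 0 and the miR-378 family 0 calls. The miR-30 family, abundant in kidney, had 16 tested names and 0 calls (median -0.04; with TMM 3 higher in medulla), and its most counted member miR-30a-5p stood at medians of 75481 CPM in cortex and 72531 CPM in medulla. Without rat 11 the change of miR-30a-5p was 0.23 and passed. No call was made either for the 4 tested names of miR-183, miR-96 and miR-182 or for the 4 of miR-34 and miR-449, although TMM and DESeq2 each put 2 of the latter higher in medulla. The medians of 9 of the 31 lists with a tested member changed sign with the scaling, and none of these 9 exceeded 0.11 in the main scaling. They were miR-30, miR-183, miR-34, miR-143, miR-126, the leukocyte miRNAs, let-7, miR-26 and miR-148.

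Markers of other cell types were read in the same way, beside 14.1% of all names higher in medulla and 29.3% in cortex. Of the erythroid miRNAs, 3 of 7 tested names were higher in cortex and 0 in medulla (median -0.32), and 1 with TMM. miR-451-5p ranged from 178 to 437 CPM in cortex and from 110 to 268 CPM in medulla, and the composite miR-3107-5p;miR-486-5p from 1938 to 11016 CPM and from 1384 to 3375 CPM. miR-486-5p alone was not called. Its log2 ratio of medulla to cortex (1 CPM added to each) was 4.31 in rat 7 and -2.36 to -0.069 in the other rats. The medulla of rat 7 includes the run that stood apart at the read ends, and the composite had a ratio of -0.910 in that rat. The cause was not tested. The part of blood in the other differences was not tested. Of the leukocyte miRNAs, 2 of 7 were higher in medulla and 0 in cortex (median -0.03), and with library totals 2 and 2. The lymphocyte miRNA miR-150-5p had medians of 321 CPM in cortex and 635 CPM in medulla and changed by 0.93 ± 0.11, and miR-142-5p had medians of 598 and 534 CPM. Smooth muscle miR-143 and miR-145 had 1 of 4 names higher in medulla and endothelial miR-126 0 of 2 (with TMM 2 of 2 higher in medulla), and miR-143-3p stood at medians of 29523 and 28648 CPM. The striated muscle list had 1 tested name and 0 calls, and miR-1-3p did not exceed 0.803 CPM. The liver and pancreas lists had no tested name.

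Many groups of neighbouring precursors had calls in 1 direction, beside 14.1% of all names higher in medulla and 29.3% in cortex. Of 27 groups of at least 2 tested precursors on 1 strand with gaps of at most 10000 bases, 6 had 2 or more calls that were all higher in medulla, 9 had 2 or more that were all higher in cortex, and 1 had both directions. These calls are of mature names, so the arms of 1 precursor can make up both. That was so for miR-98 beside let-7f-2 and for miR-653 beside miR-489, both among the groups higher in cortex. Positions are those of RefSeq in GRCr8. From miR-411 to miR-410 (chr6:134543445-134579838, plus strand) 14 of 14 tested names were higher in cortex, with a median log2 change of -1.68. This stretch also holds miR-300-3p and miR-1193-3p, which the Dlk1-Dio3 list did not contain. From miR-127 to miR-136, upstream on the same strand (chr6:134298084-134331416), 0 of 3 passed. Rat by rat, the summed level of the first group fell by more than that of the second, by a log2 of 1.81 ± 0.80 (SD, 10 of 10 rats). This contrast was chosen with the values in view, so no test is given. miR-201, miR-547 and miR-3585 (chrX:151706708-151712161, minus strand) were higher in medulla for 5 of 5 names, miR-141 and miR-200c (chr4:159209525-159210033, minus strand) for 3 of 3, and miR-221 and miR-222 (chrX:6022621-6023290, plus strand) for 3 of 3. miR-192 and miR-194 on chromosome 1 (chr1:212994024-212994318, plus strand) were higher in cortex for 3 of 3.

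The group with both directions was miR-23b, miR-27b and miR-24-1 (chr17:1818669-1819482, minus strand). miR-23b-3p was higher in cortex, with 741 to 2311 CPM in cortex (median 1062) and 561 to 789 CPM in medulla (median 700) and a change of -0.62 ± 0.13, whereas miR-27b-3p was called higher in medulla at 0.21 ± 0.07, a call that did not hold under all 4 scalings and was lost without any 1 of rats 4, 5, 7, 8 and 10 (0.17 to 0.21). The calls of miR-23b-3p and miR-27b-3p were both lost with the RIN in the fit. In the paralogous group on chromosome 19 (chr19:40859455-40859843, minus strand) all 4 names were higher in medulla. miR-23a-3p, which shares the seed of miR-23b-3p, changed by 0.38 ± 0.07 there, a call that also did not hold under all 4 scalings. The difference between miR-23a and miR-23b was 1.00 ± 0.40 (log2, SD, 10 of 10 rats, no test).

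**Figure D4:**
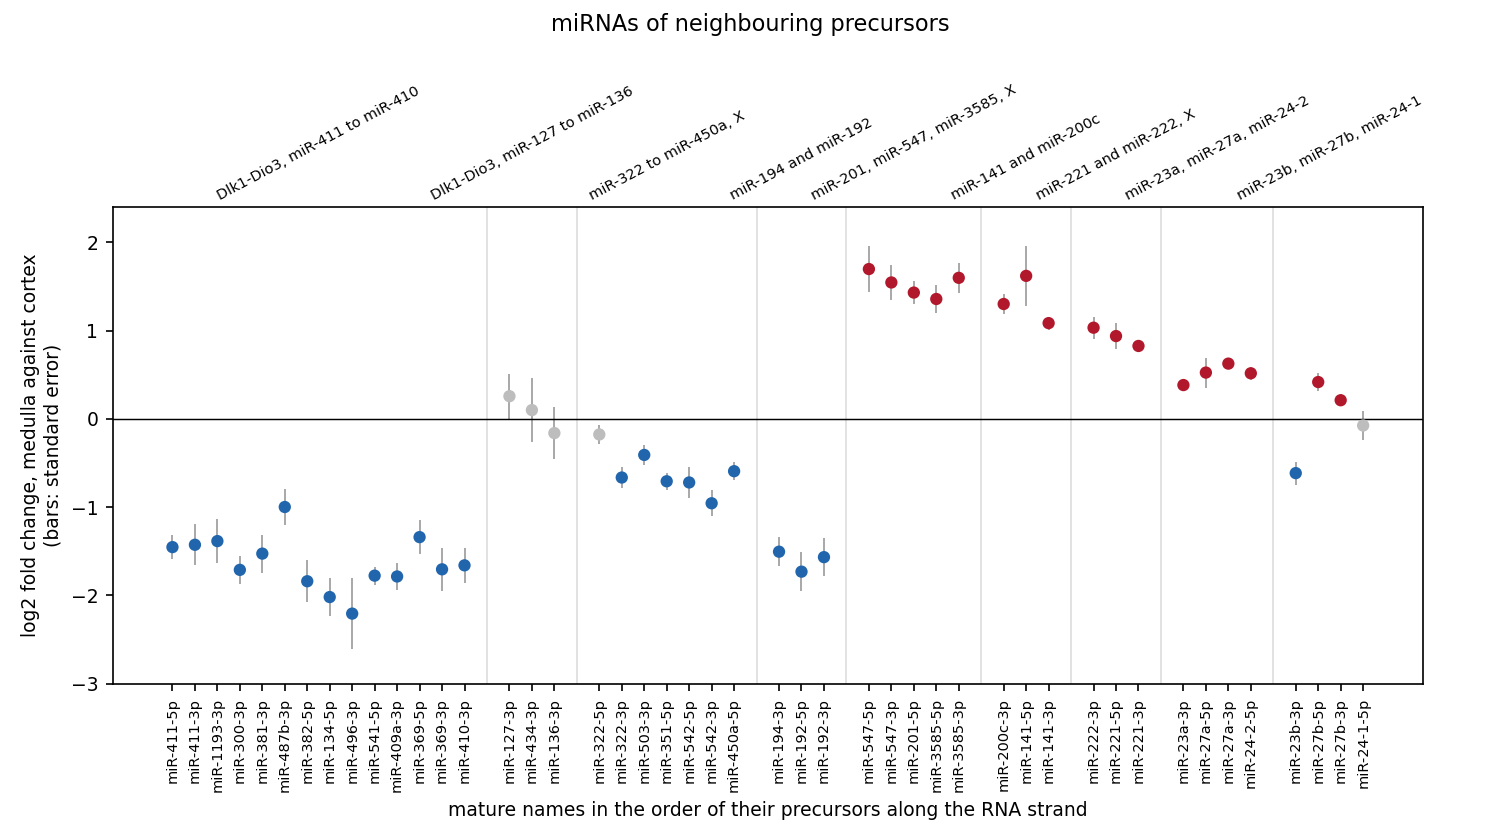
Log2 fold change of medulla against cortex with its standard error for the mature miRNAs of 9 groups of neighbouring precursors, in their order along the RNA strand and coloured by call. The 14 names from miR-411 to miR-410 all lie below 0, while the 3 from miR-127 to miR-136 lie around 0.

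Summing the counts of names by the seed of their most counted read gave 276 seed families, of which 55 were higher in medulla (19.9%) and 106 higher in cortex (38.4%). Of 42 seeds shared by 2 or more tested names, 11 had 2 or more calls in 1 direction and 7 had calls in both directions, 2 of them under all 4 scalings. One of these is the AUUGCAC seed of the miR-92 family, whose members differ outside the seed.
miR-92a-3p: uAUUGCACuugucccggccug
miR-92b-3p: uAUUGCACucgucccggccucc
miR-25-3p: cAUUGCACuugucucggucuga
miR-32-5p: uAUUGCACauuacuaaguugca
miR-363-3p: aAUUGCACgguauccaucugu

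miR-92a-3p had 2343 to 3285 CPM in cortex (median 2648) and 3235 to 4719 CPM in medulla (median 3871) and changed by 0.71 ± 0.07 (edgeR adjusted p = 1e-05), and miR-92b-3p changed by 1.21 ± 0.13. miR-32-5p (medians 28.9 and 17.7 CPM) and miR-363-3p (43.2 and 21.1 CPM) changed by -0.44 ± 0.11 and -0.74 ± 0.16, higher in cortex. With the RIN in the fit neither passed. miR-25-3p changed by 0.09 ± 0.07 and was not called. Since miR-92a-3p dominated the sum, the seed family as a whole was higher in medulla, by 0.63. The other seed was CCCUGAG, with miR-125a-5p (medians 4745 and 6382 CPM) higher in medulla at 0.58 ± 0.13 and miR-351-5p higher in cortex at -0.71 ± 0.10. The call of miR-125a-5p was lost with the RIN in the fit.
miR-125a-5p: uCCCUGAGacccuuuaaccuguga
miR-351-5p: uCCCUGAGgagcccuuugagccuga

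The arms of a precursor mostly moved in the same direction. Of 92 precursors with both arms tested, 41 had both called, all 41 in the same direction, and 84 had both of the same sign. Exceptions in sign included miR-200b (5p -0.15, 3p 0.53) and miR-145 (5p -0.16, 3p 0.37), each with only the 3p arm called. The share of the 5p arm among the reads of a precursor was compared over 10 rats by an exact sign-flip permutation test (two-sided, smallest possible p 0.001953) in 124 precursors, of which 5 differed (4.03%). The 5p share of miR-345 went from 36.9% ± 5.8 in cortex to 46.3% ± 8.6 in medulla (SD, n = 10), that of miR-151 from 30.8% ± 2.9 to 35.7% ± 1.4, and that of miR-21 from 98.5% ± 0.2 to 98.9% ± 0.2, each higher in 10 of 10 rats. It was lower in medulla for miR-200a (5.42% to 4.48%) and miR-200b (1.23% to 0.751%). Each of the 5 had an exact permutation p of 0.001953 (adjusted 0.0484), and without rat 7, where 9 rats allow no p below 0.003906, 0 precursors passed (20 at an unadjusted p of at most 0.05).

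Read ends were compared by the same exact test in 155 names with at least 100 reads in every library. With all runs, the share of reads with another 5′ end than the usual one differed for 0 names (11 at an unadjusted p of at most 0.05). Mean read length was longer in medulla for 25 names (16.1%) and shorter for 1 (0.645%). The largest differences among names past the threshold included 0.203 bases for the composite miR-103-3p;miR-107-3p, 0.180 for miR-664-3p, 0.164 for miR-9a-5p, -0.147 for miR-182, 0.132 for miR-128-3p and 0.130 for miR-200a-5p. Leaving out rat 7 gave 13 longer and 2 shorter of 156, and leaving out only the run that stood apart gave 11 longer and 3 shorter of 102. Without that run miR-9a-5p differed by 0.120 bases and did not pass (exact permutation, adjusted p = 0.0531). The names miR-103-3p;miR-107-3p, miR-664-3p, miR-128-3p and miR-200a-5p then had too few reads to be tested. Both miR-182 (-0.188 bases, 10 of 10 rats) and miR-148b-3p (0.102 bases, 10 of 10) passed without that run, and both differences were within 0.2 bases. By the exact permutation test the 5′ end differed for 0 names also without rat 7, on 1 flow cell alone and with at least 500 reads required (27, 14 and 8 at an unadjusted p of at most 0.05). With that run left out, 4 names differed at the 5′ end, the largest by far being miR-101a-3p, which was picked after its values were seen. Its most counted read and the RefSeq sequence differ by 1 base at the start, which moves the seed.
most counted read of miR-101a-3p: gUACAGUAcugugauaacuga
miR-101a-3p: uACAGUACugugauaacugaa

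The share of miR-101a-3p reads with another start than the most counted one was 38.2% ± 2.1 in cortex and 45.3% ± 3.3 in medulla, higher in medulla in 10 of 10 rats (SD, n = 10, exact permutation p = 0.001953, adjusted 0.0498). With all runs the medulla value was 46.7% ± 6.4 (adjusted p = 0.151, exact permutation).

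Whole kidney mostly lay between the regions and nearer to cortex. The whole kidney mean was between those of cortex and medulla for 180 of the 206 names called and for 288 of all 475. For the 108 called names with a mean of at least 10 CPM and a call under all 4 scalings, it was between for 97 and nearer to cortex for 92, and on a scale from 0 (cortex) to 1 (medulla) its median place was 0.318. These comparisons share libraries with each other. In a fit of all 30 libraries with 510 names tested, whole kidney differed from cortex for 9 names (1.76%) and from medulla for 176 (34.5%). Of the 9, miR-3963 was lower in whole kidney and 8 were higher, miR-31a-5p by a log2 of 1.21 ± 0.20 and miR-201-5p by 0.51 ± 0.11 among them. miR-205 had a whole kidney median above that of medulla, but whole kidney and medulla did not differ by the test. It ranged from 43.4 to 156 CPM in whole kidney (median 123), against a median of 96.3 CPM in medulla, and was 2.49 ± 0.29 above cortex (edgeR adjusted p = 1.3e-05) and 0.13 above medulla (edgeR adjusted p = 0.78).

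The sexes were compared by the difference of their medulla-to-cortex changes. That term passed for 0 of 475 names (21 at an unadjusted p of at most 0.05, smallest edgeR adjusted p = 0.404; with DESeq2 0 and 30). All 206 called names changed in the same direction in both sexes, but they were called on these same rats together, so this is no test of agreement. Without rat 10, a female, 4 names passed: miR-183-5p, miR-182, miR-375-3p and a composite name that holds miR-148a-3p. The 5 smallest p of the full fit belonged to miR-183-5p (log2 change 0.27 in males and -0.47 in females), miR-135a-5p, miR-375-3p (0.56 and -0.47), miR-149-5p (-0.39 and -1.46) and miR-224-5p (0.82 and 2.08), each with an edgeR adjusted p of 0.404.

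Within one region the sexes often lay apart. The 5 male and 5 female CPM values did not overlap for 56 of the 475 names in medulla (11.8%) and for 22 in cortex (4.63%), and these are given as description. In medulla males were higher for 52 and females for 4. Of the 52, 30 were among the 139 names called higher in cortex (29.3% of all names). With upper quartile scaling males were higher for 25, of which 18 were called higher in cortex, and females for 10. Among the 4 by CPM was miR-10a-5p, which holds so large a share of the counts, with 218800 to 308000 CPM in males and 341710 to 415410 CPM in females. miR-192-5p ranged from 20953 to 48990 CPM in male and from 5087 to 17849 CPM in female medulla, and lay apart under both scalings. In cortex it ranged from 59925 to 98824 CPM in males and from 50793 to 65953 CPM in females. Its medulla-to-cortex change was -1.25 in males and -2.23 in females (edgeR p = 0.0127, adjusted 0.70). miR-135a-5p lay apart in both regions, at 13.5 to 43.4 CPM in male and 1.24 to 2.74 CPM in female medulla, and at 17.3 to 34.1 and 2.96 to 8.49 CPM in cortex. In cortex miR-183-5p was lower in males (411 to 546 CPM) than in females (727 to 972 CPM), and so was miR-201-5p (19.5 to 25.6 and 31.8 to 42.9 CPM). The whole-tissue samples do not show which cells carried these differences.

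**Figure D5:**
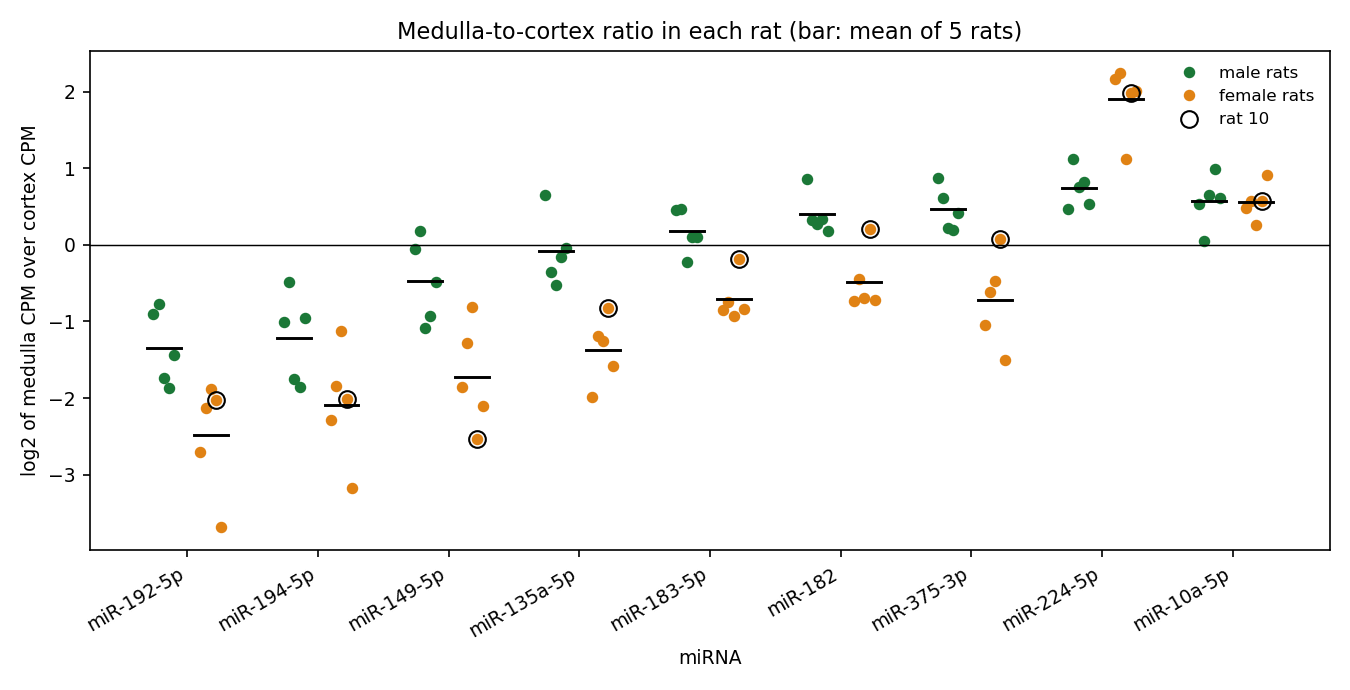
Log2 ratio of medulla CPM to cortex CPM in each of the 10 rats for 9 miRNAs, with males and females side by side, bars at the mean of 5 rats and rat 10 ringed. For miR-182 and miR-375-3p the 5 males and 4 of the 5 females lie on opposite sides of 0 and rat 10 lies with the males, while miR-10a-5p shows like ratios in both sexes.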

How the data were processed

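Small RNA libraries (TruSeq) were sequenced in several runs each. Per the study's methods, the authors removed adapters with cutadapt 1.4.1, discarded short reads and matched the rest with the miRDeep2 quantifier to rat, then mouse, human and C. elegans miRBase precursors. The deposited values are counts of each read sequence per run, with the miRNA name the authors gave it. Reads that fit several precursors carry a composite name, so the split among near-identical miRNAs is uncertain.

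Counts were summed by name and library, with duplicate deposits of a lane for the cortex of rat 7 used once (42 runs). Names passing edgeR's filterByExpr were fitted with edgeR 4.0.16 (R 4.3.3) by the quasi-likelihood F test, upper quartile scaling and terms for rat and region, with Benjamini-Hochberg adjustment over all names tested. The SE is the log2 change divided by the square root of F. DESeq2 1.42.0, TMM, library totals, other filters, flow cells, a RIN term and omission of rats were alternatives. Read ends (at least 100 reads) and arm shares (at least 50) were tested by two-sided exact sign-flip permutation over rats with numpy 2.4.6. Same-numbered samples come from the same rat. Their deviations from the region means correlated at -0.25 to 0.47 (median 0.20, 7 of 10 pairs above 0.1), against a median of -0.05 between different rats. On simulated data with 199 of 469 names changed by a log2 of 1, up or down in like number, the test recovered 87.9%, with 16 calls among the unchanged names. The median fitted log2 change was -0.17 for the unchanged names and 0.80 for the raised ones. In the simulation the upper quartile scaling thus placed changes too far towards cortex.

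The miRNAs named were miR-10a-3p, the 12 largest changes in each direction (mean of at least 10 CPM, same direction in all 10 rats), the 6 largest CPM differences in each direction, the 4 most abundant members of each of 33 lists, the 5 smallest p of the sex term, the 6 largest read-end results and the 6 most counted names of each region, with some left out. miR-32-5p, miR-363-3p, miR-101a-3p and miR-3963 were added after their values were seen. Members and lists were chosen with earlier results of these data known. Counts of sequenced reads carry PCR copies, so depth covers counting error only. Totals of 2243745 and more let 1 CPM stand for at least 2 counts.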

Additional observations from a re-analysis of the deposited data

Results flagged for a closer look

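For each of 67 miRNAs named, the 10 values of a region were searched for a highest or lowest library whose gap to the next exceeded Dixon's 95% critical value for 10 values. Chance gives about 1 in 20 such groups. Over all tested names 158 of 1425 groups (11.09%) stood out, and over the miRNAs named 15 of 201 (7.463%). In cortex, rat 10 had the highest miR-3107-5p;miR-486-5p level (11016 CPM, the others at most 4804 CPM). Rat 9 had the highest miR-351-5p (1333.4 CPM) and rat 5 the highest miR-21-3p (231.74 CPM). The cortex of rat 3 had the highest miR-10b-5p (249940 CPM) and the lowest miR-27b-3p (15986 CPM). In medulla, rat 2 was highest for miR-32-5p (31.578 CPM, the others at most 21.1 CPM), miR-134-5p (11.357 CPM) and miR-1193-3p (3.4625 CPM), and rat 11 lowest for miR-181a-5p (9079.1 CPM) and miR-30a-5p (57278 CPM). In whole kidney, rat 6 was highest for miR-141-3p (587.24 CPM) and miR-224-5p (5.0892 CPM) and lowest for miR-451-5p (103.62 CPM), rat 10 highest for miR-201-5p (68.953 CPM) and rat 9 for miR-187-3p (18.197 CPM).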

How the results depend on the processing

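With the settings of the report, 67 names were higher in medulla and 139 in cortex. Without the replicate block for the rat these were 68 and 132. Leaving out 1 rat at a time gave 60 to 72 and 126 to 146. The cortex count was 66 with a mean of at least 10 CPM required (78 in medulla) and 66 on 1 flow cell alone (66 in medulla, 262 names tested), and with the RIN in the fit the counts were 34 and 62. TMM gave 89 seed families higher in medulla. Whole kidney differed from cortex for 9 names, for 3 with TMM and for 4 without the replicate block. The sex term gave 0 to 4 names when 1 rat was left out, the 4 without rat 10. Share of 5′-shifted reads went from 0 to 4 names without the run of rat 7 that stood apart. Read length differed for 26 names, for 15 without rat 7 and for 14 without that run, and for 0 on the single flow cell, 0 without rats 4 and 7 and 0 without rats 2, 4 and 10. Arm share went from 5 to 0 without rat 7 and to 0 without rats 2, 4 and 10. With 9, 8 or 7 rats the smallest exact p is 0.003906, 0.007812 or 0.01562. The cause was not tested for the other changes. Of 1732 log2 changes of the 67 miRNAs named under an alternative, 1624 kept their side of the threshold (30 of these changed sign while past it in neither fit), 81 lost the call, 27 gained one and 0 called values changed sign. Depth limits miRNAs of a few CPM, such as miR-3963 and miR-224-5p. Without the block the calls of miR-22-3p (-0.32) and miR-203a-3p (-0.39) were lost, and no other call of a miRNA named changed.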
